A study of Mus musculus with 32 samples.

Results

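The 8 ears of HDM-treated mice did not respond alike. Each was scored by the mean log2 level of S100a8, S100a9, Defb3, Krt16 and Sprr2d, and the 4 highest-scoring ears (mice 1, 2, 5 and 7) were set against the 4 lowest-scoring ears (mice 3, 4, 6 and 8), with the 8 sham ears beside them. These 16 ear arrays are part of a series of 32, which also holds 8 HDM and 8 sham arrays of dorsal back skin. All mice were NC/Nga, an inbred strain prone to dermatitis, and the ear samples were 8 mm punches of whole tissue, labelled only by the agent (HDM or sham), the tissue and a mouse number. The labels do not spell out HDM, do not describe the sham treatment and give no age. They do not say whether a number names the same animal in ear and back skin, so the 32 arrays may come from fewer than 32 mice. Values are RMA log2 levels per transcript cluster on a Mouse Clariom D array, and they run between 1.71 and 19.93.

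The score genes stand for a known epidermal programme. S100a8 and S100a9 form calprotectin, a metal-binding antimicrobial complex made by neutrophils and by stressed keratinocytes. Defb3 is a beta-defensin of skin, Krt16 is a keratin that keratinocytes switch on when the epidermis thickens, and Sprr2d is a small proline-rich protein of the cornified envelope. Such genes are low in resting skin and high in inflamed and wounded epidermis, where cytokines of the IL-17 and IL-36 families are known inducers of them.

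The score was 18.56, 18.67, 18.70 and 18.45 in the 4 higher-scoring HDM ears and 14.89, 16.44, 15.81 and 15.60 in the 4 lower-scoring HDM ears, in the order of mouse numbers given above, which is kept throughout. In sham ears it ran between 4.63 and 8.31 with a median of 5.68. The last array inside the higher set was mouse 7 at 18.45, and the first outside it was mouse 4 at 16.44. The higher set was tight (18.60 ± 0.113, SD, n = 4) and the lower set was wider (15.68 ± 0.641, SD, n = 4), and both stood far above every sham ear. Each of the 5 score genes separated the same 4 and 4 ears, so leaving out a gene or standardising the genes could not change the sets. Ranking the ears on the first principal component of all other rows put the same 4 ears in each set. Since the lower-scoring ears stood far above sham, they were not unresponsive, and a name such as mild describes them only relative to the other 4 HDM ears. The sets were chosen by the measured levels of the 5 score genes on these same arrays, so differences between the sets are given as descriptions with no test.

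S100a8 was 19.20, 19.83, 19.67 and 19.07 in the higher-scoring HDM ears and 15.65, 17.46, 16.21 and 16.20 in the lower-scoring HDM ears, with a sham median of 5.67 (4.14 to 9.32). Defb3 was 18.11, 18.09, 18.05 and 17.93 in the higher-scoring HDM ears and 13.72, 15.29, 15.19 and 14.92 in the lower-scoring HDM ears, with a sham median of 4.83 (3.04 to 6.87). Sprr2d had the widest separation of the score genes, at 17.89, 17.86, 18.01 and 17.84 in the higher-scoring HDM ears and 13.47, 14.78, 13.93 and 14.15 in the lower-scoring HDM ears, with a sham median of 5.13 (4.89 to 7.09). Within the lower set, mouse 4 was the highest and mouse 3 the lowest for all 5 score genes. The differences of means were 3.06 for S100a8, 2.67 for S100a9, 3.27 for Defb3, 1.74 for Krt16 and 3.82 for Sprr2d. S100a8 and S100a9 came within about 1 log2 unit of the upper limit of the values in the higher-scoring HDM ears, so their differences may be compressed.

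**Figure D1:**
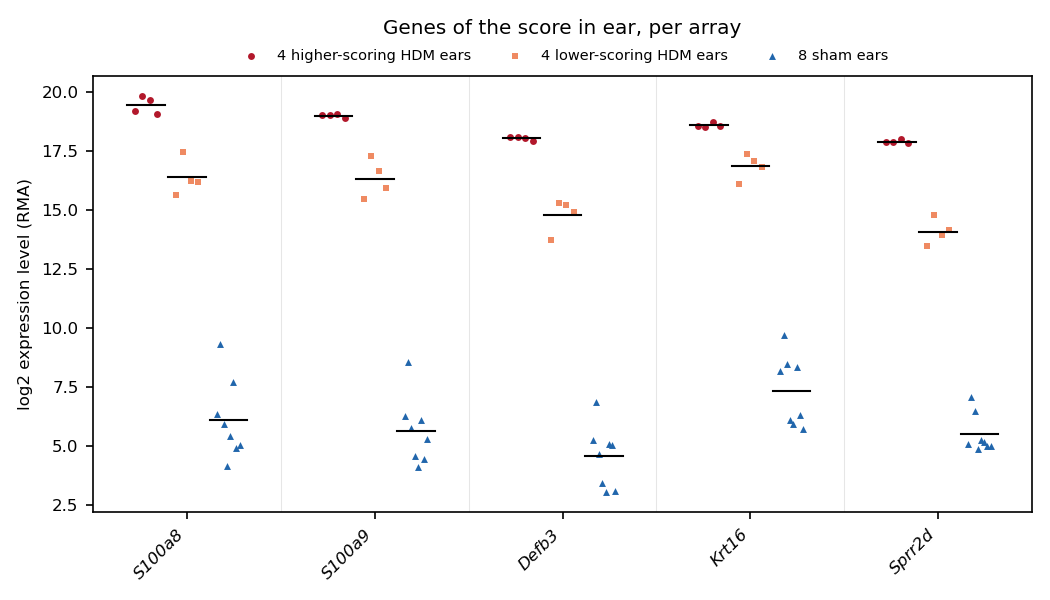
Log2 expression level of the 5 score genes on each ear array, for the 4 higher-scoring HDM ears, the 4 lower-scoring HDM ears and the 8 sham ears; bars are means. Within HDM ears the sets do not overlap for any of the 5 genes, which is how they were chosen, and both lie above all sham ears.

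The sequence before and around the start of 3 score genes and of Flg2, the gene with the largest difference in the other direction, is shown so that the genes that mark the split can be seen beside their levels. Each stretch covers 250 bases before to 50 bases after the annotated start, written 5′ to 3′ on the gene's strand, from RefSeq on GRCm38.p6. Capitals mark matches to 3 short patterns searched on both strands: AP-1 (TGANTCA), C/EBP (TTGCNNAA, read on the other strand as TTNNGCAA) and STAT (TTCNNNGAA).
S100a9, chr3:90695672-90695971, minus strand: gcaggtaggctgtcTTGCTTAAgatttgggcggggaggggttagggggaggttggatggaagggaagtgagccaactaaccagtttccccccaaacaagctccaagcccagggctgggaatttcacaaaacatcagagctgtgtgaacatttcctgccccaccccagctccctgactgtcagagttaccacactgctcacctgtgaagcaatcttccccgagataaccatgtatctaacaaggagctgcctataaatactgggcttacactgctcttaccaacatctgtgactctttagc
Defb3, chr8:19293111-19293410, plus strand: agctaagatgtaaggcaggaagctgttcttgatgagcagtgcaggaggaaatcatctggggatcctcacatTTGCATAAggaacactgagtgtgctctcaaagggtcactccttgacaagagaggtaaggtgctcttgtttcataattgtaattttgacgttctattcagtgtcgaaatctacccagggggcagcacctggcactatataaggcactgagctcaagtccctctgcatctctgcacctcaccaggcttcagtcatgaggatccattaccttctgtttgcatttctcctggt
Sprr2d, chr3:92338890-92339189, plus strand: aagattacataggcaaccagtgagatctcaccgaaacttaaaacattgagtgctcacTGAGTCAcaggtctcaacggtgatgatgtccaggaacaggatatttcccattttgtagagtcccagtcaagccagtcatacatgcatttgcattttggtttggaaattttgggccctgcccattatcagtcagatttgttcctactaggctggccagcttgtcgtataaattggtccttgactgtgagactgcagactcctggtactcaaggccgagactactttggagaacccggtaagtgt
Flg2, chr3:93197023-93197322, plus strand: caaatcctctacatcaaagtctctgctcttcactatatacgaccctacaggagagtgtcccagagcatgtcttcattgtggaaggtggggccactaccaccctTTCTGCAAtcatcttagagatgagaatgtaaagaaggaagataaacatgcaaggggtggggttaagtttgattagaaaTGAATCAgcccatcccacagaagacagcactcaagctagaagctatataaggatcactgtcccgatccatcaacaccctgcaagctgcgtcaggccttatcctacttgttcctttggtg
S100a9 and Defb3 each held 1 C/EBP match, Sprr2d held 1 AP-1 match, and Flg2 held 1 of each. No marked matches overlap. Of all 27025 promoters, 7.93% held an AP-1 match, 10.8% a C/EBP match and 8.47% a STAT match. A match is a description of these letters, not a binding site or a cause. The score genes S100a8 and Krt16 are not shown, so these matches do not describe the score genes as a set.

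Outside the score genes, the first principal component of the 8 HDM ears held 63.8% of the variance, against 7.72% for the second, and its values were 60.55, 77.78, 64.31 and 30.23 in the higher-scoring HDM ears and -69.40, -38.73, -55.45 and -69.29 in the lower-scoring HDM ears. Of 22206 transcript clusters, 2464 (11.1%) were wholly higher and 2618 (11.8%) wholly lower in the higher-scoring HDM ears, with no overlap of the 4 and 4 values. With a difference of at least 1 log2 unit as well, 1240 (5.58%) were higher and 1329 (5.98%) lower. The median difference over all transcript clusters was 0.02, and its 5th and 95th percentiles were -1.17 and 1.15. Mouse 7 was the higher-scoring ear nearest to the lower set in 48.6% of the 2464, and mouse 4 was the lower-scoring ear nearest to the higher set in 45.5%. In 37.3% of the 2464 and 36.4% of the 2618, the largest gap among the 8 sorted values lay between the sets. For the others it lay within a set, so that these genes formed a gradient over the ears or set 1 ear apart.

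Against sham, limma called 3638 transcript clusters (16.4%) higher and 3438 (15.5%) lower over all 8 HDM ears at a Benjamini-Hochberg adjusted p of 0.05, and "rose" and "fell" refer to that test below. Of the 3638 that rose, the higher-scoring HDM ears lay wholly above the 8 sham ears in 2718 (74.7%) and the lower-scoring HDM ears in 1191 (32.7%). Of the 3438 that fell, the higher-scoring HDM ears lay wholly below sham in 2355 (68.5%) and the lower-scoring HDM ears in 647 (18.8%). Over all 22206, the higher-scoring HDM ears were wholly above sham in 2927 (13.2%) and wholly below in 2661 (12.0%), and the lower-scoring HDM ears in 1267 (5.71%) and 671 (3.02%). Both sets are compared with the same sham arrays, so these counts are not independent of each other.

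A test that does not use the split asked whether a gene varied more among HDM ears than among sham ears. By limma on absolute deviations from the group mean, 1447 transcript clusters (6.52%) were more variable among HDM ears and 83 (0.374%) less variable at an adjusted p of 0.05. The score genes are left aside here, since their values in HDM ears made the split. The 5 with the lowest p were Hlf, Slc24a3, Cbln1, Mt4 and Slfn1. Hlf, a clock-controlled transcription factor, was 7.64, 7.64, 7.08 and 7.84 in the higher-scoring HDM ears and 11.32, 10.83, 11.24 and 11.19 in the lower-scoring HDM ears, with a sham median of 11.63 (11.39 to 11.86). Its HDM ears thus sat at 2 separate levels. Cbln1, a secreted protein best known from synapses, was above background in all 4 higher-scoring HDM ears (7.54, 7.05, 7.21 and 6.64) and in none of the lower-scoring HDM ears (3.23 to 3.72) or sham ears. Its mean was at least 4.59-fold higher in the higher-scoring than in the lower-scoring HDM ears, counting the background level in place of values under it, as for each "at least" below.

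The neutrophil list had the largest median difference of the lists examined. Of its 18 measured members outside the score, 16 were wholly higher in the higher-scoring HDM ears and 1 wholly lower, with a median difference of 4.60 against 0.02 over all transcript clusters. Over all transcript clusters, 11.1% were wholly higher and 11.8% wholly lower, and 16.4% rose and 15.5% fell. These shares are the reference for the list counts below. Csf3r, the receptor for the neutrophil growth factor G-CSF, was 13.72, 14.13, 13.69 and 12.24 in the higher-scoring HDM ears and 7.13, 9.05, 8.47 and 6.81 in the lower-scoring HDM ears, with a sham median of 4.32. Retnlg, a resistin-like protein of mouse neutrophils, was 13.78, 15.55, 14.93 and 13.57 in the higher-scoring HDM ears and 7.15, 9.72, 8.77 and 7.07 in the lower-scoring HDM ears, and below background in every sham ear. Both sets stood above sham for both genes, in steps. Mmp8, neutrophil collagenase, averaged 11.28 ± 0.96 in the higher-scoring HDM ears, 5.31 ± 1.22 in the lower-scoring HDM ears (SD, n = 4 each) and 3.18 ± 0.22 in sham ears (SD, n = 8). Mpo, the granule enzyme of early neutrophil precursors, was below background in all 8 HDM ears. In whole punches, more cells of a type and more RNA per cell cannot be told apart.

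Neutrophil-drawing chemokines were among the largest differences of all genes. Cxcl5 was 14.84, 15.45, 14.29 and 13.70 in the higher-scoring HDM ears and 5.95, 10.28, 8.78 and 5.25 in the lower-scoring HDM ears, with all sham ears below background (2.68 to 3.95). Cxcl2 was 14.99, 15.50, 14.99 and 13.43 in the higher-scoring HDM ears and 6.46, 10.36, 9.95 and 6.99 in the lower-scoring HDM ears, with all sham ears below background (3.32 to 4.17). Ccl3, which draws monocytes and neutrophils, was 11.99, 12.23, 12.55 and 10.88 in the higher-scoring HDM ears and 4.38, 5.44, 6.76 and 4.11 in the lower-scoring HDM ears, where only 2 of 4 were above background. The differences of means were 7.00 for Cxcl5, 6.29 for Cxcl2 and 6.74 for Ccl3, and no values overlapped. All 3 rose over the 8 HDM ears. Since no sham ear was above background, the rise is given as a bound against the background level, at least 58.4-fold for Cxcl5 (means of 11.07 in HDM ears and 3.14 in sham ears, adjusted p = 3.17e-07, limma) and at least 10.1-fold for Ccl3 (means of 8.54 in HDM ears and 3.87 in sham ears, adjusted p = 0.000159). Within the lower set, mice 4 and 6 were the higher pair for all 3 chemokines.

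Proinflammatory cytokines followed the same split. Of 28 measured in the list, 25 were wholly higher in the higher-scoring HDM ears and none wholly lower, with a median difference of 2.09, and 25 rose over all 8 HDM ears. Il1b, the inflammasome-processed cytokine, was 14.33, 14.67, 14.02 and 12.46 in the higher-scoring HDM ears and 7.20, 9.32, 10.20 and 7.56 in the lower-scoring HDM ears, and below background in all sham ears. Il6 was 10.71, 10.25, 7.42 and 7.54 in the higher-scoring HDM ears and below background in all lower-scoring HDM ears and all sham ears, so its mean was at least 16.8-fold higher in the higher-scoring than in the lower-scoring HDM ears. Nlrp3, the sensor of the inflammasome that matures IL-1, was likewise above background in the 4 higher-scoring HDM ears (8.68, 8.55, 7.42 and 6.91) and in no other ear, at least 7.88-fold higher. In the list of gasdermin and cell death genes, 12 of 18 were wholly higher and none wholly lower in the higher-scoring HDM ears, with a median difference of 1.44.

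The IL-17 cytokine genes Il17a and Il17f were detected almost only in the higher-scoring HDM ears. Il17c was not so restricted, since it was above background in 6 of the 8 HDM ears and in no sham ear. Il17a was 5.51, 6.22, 6.54 and 4.23 in the higher-scoring HDM ears, of which 3 were above background, and below background in all 4 lower-scoring HDM ears (2.65 to 3.13) and all sham ears (2.75 to 3.41). Il22, a partner cytokine that acts on keratinocytes, showed the same pattern, at 4.99, 7.03, 7.13 and 4.31 in the higher-scoring HDM ears and 2.70, 3.94, 2.80 and 3.01 in the lower-scoring HDM ears. Mouse 7, the lowest-scoring of the higher set, was the ear below background for both. Il17f was clearer, at 7.54, 8.21, 9.39 and 7.74 in the higher-scoring HDM ears and 4.14, 4.93, 4.58 and 4.84 in the lower-scoring HDM ears, where 1 ear was above background. Over all 8 HDM ears, of which 5 were above background, Il17f rose at least 2.33-fold against a sham group wholly below background (means of 6.42 in HDM ears and 3.40 in sham ears, adjusted p = 4.35e-05, limma). Il17a and Il22 also passed that test (adjusted p = 0.03 and 0.00181, limma), but their HDM ear means of 4.27 and 4.49 lay under the background of the sham ears, so no fold is given for them. Il17a, Il17c and Il22, and Il1f6 below, were singled out after their values were seen.

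Of all 25 IL-17 and IL-36 axis genes, 16 were wholly higher and 1 wholly lower in the higher-scoring HDM ears (11.1% and 11.8% over all transcript clusters), with a median difference of 1.46. Il1f6, the gene of the keratinocyte cytokine IL-36 alpha, was high in every HDM ear, at 15.34, 15.23, 15.49 and 14.91 in the higher-scoring HDM ears and 11.50, 12.49, 12.07 and 11.96 in the lower-scoring HDM ears, against a sham median of 7.40. The lower-scoring HDM ears thus carried IL-36 alpha message at a level well clear of sham while Il17a stayed under background in them. Il19, an IL-20 family cytokine of keratinocytes, was 11.92, 12.80, 11.78 and 12.21 in the higher-scoring HDM ears and 5.16, 9.29, 7.81 and 6.68 in the lower-scoring HDM ears. Ccl20, the ligand that draws CCR6-bearing cells, did not follow the split: it was 7.09, 7.76, 7.91 and 7.26 in the higher-scoring HDM ears and 7.09, 7.27, 7.61 and 8.59 in the lower-scoring HDM ears, with a sham median of 5.44. It rose by 2.19 ± 0.51 over all HDM ears (adjusted p = 0.00101, limma).

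Antimicrobial genes outside the score moved with it in 10 of 17 cases (11.1% over all transcript clusters), with none the other way (11.8%) and a median difference of 2.68. Reg3g, a lectin that kills bacteria, was 11.32, 10.92, 11.26 and 10.31 in the higher-scoring HDM ears and 4.47, 8.22, 6.07 and 2.68 in the lower-scoring HDM ears, where 2 of 4 were above background. Saa3, an acute phase apolipoprotein, was 13.71, 13.72, 12.10 and 12.15 in the higher-scoring HDM ears and 6.03, 8.21, 7.67 and 6.29 in the lower-scoring HDM ears. Lcn2, the iron-chelating lipocalin, was 16.59, 17.14, 17.21 and 16.38 in the higher-scoring HDM ears and 12.66, 13.87, 12.08 and 13.02 in the lower-scoring HDM ears, with a sham median of 6.08, so that both sets lay well above sham. Defb6 was among the most even members of the list that rose, with means of 16.15 in the higher-scoring HDM ears, 15.13 in the lower-scoring HDM ears and 13.06 in sham ears.

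**Figure D2:**
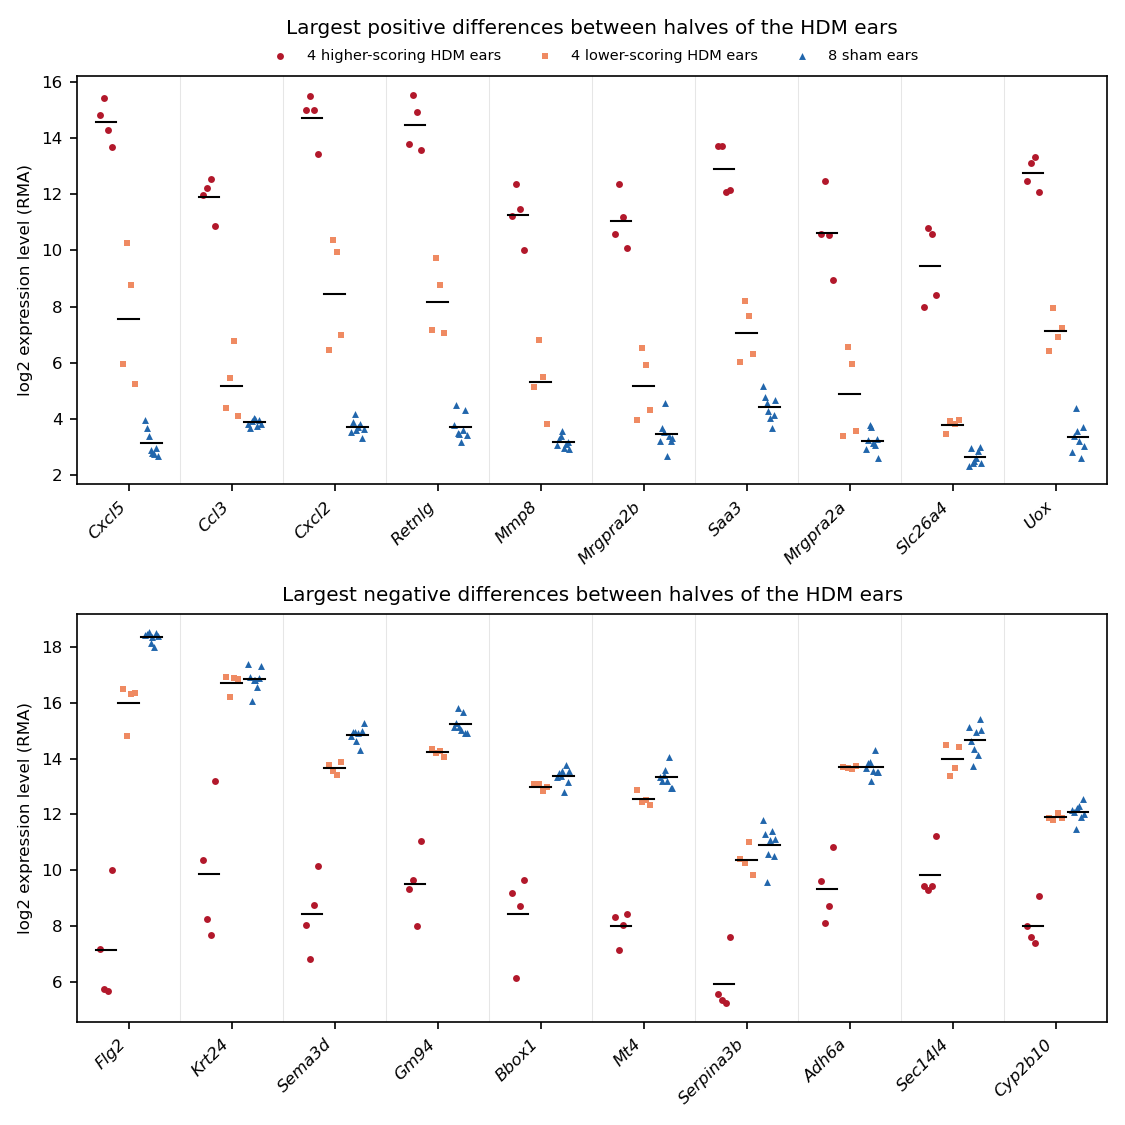
Log2 expression level on each ear array for the 10 genes with the largest positive (top) and the 10 with the largest negative (bottom) difference of means between the 4 higher-scoring and the 4 lower-scoring HDM ears, beside the 8 sham ears; bars are means. In the top panel the means of the lower-scoring HDM ears lie between the other 2, and in the bottom panel they lie near sham for genes such as Adh6a and Cyp2b10.

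The remaining largest positive differences included receptors, a transporter and an enzyme. Mrgpra2a and Mrgpra2b, G protein-coupled receptors of the Mas-related family, averaged 10.63 and 11.06 in the higher-scoring HDM ears, 4.87 and 5.18 in the lower-scoring HDM ears, and were below background in sham ears. Slc26a4, the anion exchanger pendrin, was 7.98, 10.80, 10.60 and 8.42 in the higher-scoring HDM ears and below background in every lower-scoring HDM ear (3.46 to 3.97) and every sham ear, at least 23.2-fold higher in the higher-scoring than in the lower-scoring HDM ears. Uox, which in mouse encodes urate oxidase, was 12.48, 13.11, 13.34 and 12.07 in the higher-scoring HDM ears and 6.41, 7.95, 6.91 and 7.23 in the lower-scoring HDM ears, and below background in sham ears. None of these values overlapped between the HDM sets. Slfn1, a Schlafen gene of mouse, was above background only in the higher-scoring HDM ears among the ear arrays, at 9.21, 10.19, 8.72 and 8.58, at least 19.2-fold higher than in the lower-scoring HDM ears.

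Macrophage and monocyte genes were wholly higher in the higher-scoring HDM ears for 16 of 22 and wholly lower for 1 (11.1% and 11.8% over all transcript clusters), with a median difference of 2.00, and 21 rose over all HDM ears (16.4% over all transcript clusters). Arg1, the arginase of alternatively activated macrophages, was 12.64, 12.53, 13.02 and 11.32 in the higher-scoring HDM ears and 6.76, 7.66, 7.19 and 6.67 in the lower-scoring HDM ears, above a sham range of 5.12 to 6.64. Cd14, the endotoxin co-receptor, was 13.04, 13.72, 13.00 and 11.83 in the higher-scoring HDM ears and 6.88, 9.08, 8.56 and 7.37 in the lower-scoring HDM ears, with a sham median of 5.47. Adgre1, an adhesion receptor used as a pan-macrophage marker in mouse, overlapped between the sets, at 8.44, 9.31, 7.87 and 8.46 in the higher-scoring HDM ears and 8.34, 9.33, 7.89 and 7.94 in the lower-scoring HDM ears. Csf1r, also among the most even members of the list that rose, did separate the sets. It was 14.97, 14.65, 14.32 and 14.31 in the higher-scoring HDM ears and 13.76, 14.06, 13.72 and 13.66 in the lower-scoring HDM ears. The myeloid genes that separated the sets were thus matched by Csf1r but not by Adgre1.

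T cell genes separated less. Of 17 members, 9 were wholly higher in the higher-scoring HDM ears and none wholly lower, with a median difference of 1.41. Icos, a costimulator of activated T cells, was 11.08, 12.17, 12.39 and 11.36 in the higher-scoring HDM ears and 8.08, 9.22, 8.46 and 8.56 in the lower-scoring HDM ears, with a sham median of 5.95. Cd8a was above background in the 4 higher-scoring HDM ears alone, at 4.66, 5.85, 7.45 and 6.18, at least 2.18-fold higher than in the lower-scoring HDM ears. Cd3e, a subunit of the T cell receptor complex, was 8.08, 8.49, 9.24 and 8.61 in the higher-scoring HDM ears and 8.01, 7.27, 7.82 and 7.91 in the lower-scoring HDM ears, with a sham median of 8.58. Dendritic and Langerhans cell genes had 2 of 19 wholly higher and 2 wholly lower, near the shares of 11.1% and 11.8% over all transcript clusters, with a median difference of -0.14. Eosinophil, B cell and NK cell lists were mostly at background, with 6 of 8, 7 of 9 and 5 of 9 members below background in every ear.

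Genes of type 2 immunity and itch, the arm usually tied to atopic dermatitis, had a small median difference between the sets. Of 30 measured, 11 were wholly higher and 1 wholly lower in the higher-scoring HDM ears (11.1% and 11.8% over all transcript clusters), with a median difference of 0.30, and 15 rose and 1 fell over all HDM ears. The median includes 9 members that were below background in every ear. The list means did not overlap, at 7.86 to 8.25 in the higher-scoring and 6.69 to 7.24 in the lower-scoring HDM ears. In sham ears they ran between 5.83 and 6.27. Il4 was below background on all ear arrays, as were Il5, Il13 and Il31, so these cytokines give no comparison. Ccl17, a ligand for the T cell homing receptor CCR4, was 6.50, 6.94, 8.25 and 8.84 in the higher-scoring HDM ears and 7.46, 8.86, 6.91 and 8.29 in the lower-scoring HDM ears, with sham below background. Ccl11, the eosinophil attractant eotaxin, was 8.99, 9.05, 11.41 and 10.65 in the higher-scoring HDM ears and 10.26, 10.48, 9.84 and 9.42 in the lower-scoring HDM ears, with a sham median of 8.62. For both chemokines the HDM sets overlapped, while both rose over all 8 HDM ears. The rise was at least 5.88-fold for Ccl17 against the background level (means of 7.76 in HDM ears and 4.34 in sham ears, adjusted p = 1.12e-08, limma) and 1.22 ± 0.33 log2 units for Ccl11 (SE, adjusted p = 0.00407, limma).

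Other members of that list did separate the sets. Ccl8, a monocyte and T cell attractant, was 15.80, 15.83, 15.46 and 15.10 in the higher-scoring HDM ears and 11.26, 13.04, 12.43 and 10.99 in the lower-scoring HDM ears, with a sham median of 7.70. Chil4, a chitinase-like protein, was 12.38, 11.81, 12.80 and 12.97 in the higher-scoring HDM ears and 7.05, 7.45, 9.55 and 6.10 in the lower-scoring HDM ears. Interferon-response genes were wholly higher for 19 of 30 and wholly lower for none, with a median difference of 1.34, and the median against sham was 1.73 in the higher-scoring HDM ears and 0.27 in the lower-scoring HDM ears. The lower-scoring HDM ears lay wholly above sham for 7 of the 30 (5.71% over all transcript clusters), and their list means (6.09 to 6.54) were all above those of sham ears (5.57 to 5.81). Mx1, an antiviral GTPase, was 10.19, 11.04, 8.14 and 8.49 in the higher-scoring HDM ears and 7.24, 7.85, 6.88 and 6.69 in the lower-scoring HDM ears, with a sham median of 5.80.

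Among keratinocyte genes, those of the stress list were higher where the score was higher. Of 22 genes of the stress keratin and small proline-rich list outside the score, 19 were wholly higher in the higher-scoring HDM ears and none wholly lower, with a median difference of 3.64. Sprr2f was 14.63, 15.64, 16.30 and 14.55 in the higher-scoring HDM ears and 9.05, 11.06, 10.92 and 9.51 in the lower-scoring HDM ears, with a sham median of 3.86. Lce3f, a late cornified envelope gene of the group induced by barrier injury, was 7.72, 8.32, 9.59 and 7.77 in the higher-scoring HDM ears and below background in the lower-scoring HDM ears and sham ears, at least 10.8-fold higher in the higher-scoring than in the lower-scoring HDM ears. Members of the Sprr2 and Lce3 families are near-identical and may share probes, so single values are uncertain and the 19 are not independent.

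Flg2, the filaggrin-related protein of the upper epidermis, had the largest difference of any named gene. It was 7.19, 5.73, 5.68 and 9.99 in the higher-scoring HDM ears and 16.48, 14.81, 16.30 and 16.34 in the lower-scoring HDM ears, with a sham median of 18.40 (18.00 to 18.53). The higher-scoring HDM ears lay below the lower-scoring HDM ears by 8.84 on average, and both lay wholly below sham. Over all 8 HDM ears Flg2 fell by 6.79 ± 1.18 (SE, adjusted p = 3.5e-05, limma), and it varied more among HDM than among sham ears (adjusted p = 6.65e-06). Its SD was 4.93 in HDM ears and 0.18 in sham ears, and the SE assumes equal spread. Krt24, a keratin of differentiated epidermis, was 10.36, 8.25, 7.67 and 13.21 in the higher-scoring HDM ears and 16.93, 16.22, 16.88 and 16.85 in the lower-scoring HDM ears, where it lay inside the sham range of 16.07 to 17.38. Mouse 7 was the closest of the higher set to sham for both genes.

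The cornified envelope list as a whole moved in both directions. Of 39 members, 9 were wholly higher and 21 wholly lower in the higher-scoring HDM ears, with a median difference of -0.52, and 12 rose and 12 fell over all HDM ears. The shares over all transcript clusters were 11.1% and 11.8% between the sets, and 16.4% and 15.5% against sham. Rptn, repetin, ran opposite to Flg2 although both belong to the same fused-type S100 family, at 15.71, 16.37, 16.28 and 15.56 in the higher-scoring HDM ears and 11.91, 12.52, 13.16 and 12.21 in the lower-scoring HDM ears, with a sham median of 7.70. Cnfn, cornifelin, was also higher, with a difference of 2.81. Klk14, a protease of the shedding stratum corneum, was 8.51, 9.30, 8.60 and 7.99 in the higher-scoring HDM ears and 4.19, 5.38, 4.36 and 4.17 in the lower-scoring HDM ears, of which only 1 was above background. Basal and suprabasal keratins and their partners were wholly lower for 10 of 15 and wholly higher for 1. The 1 was Krt1, with means of 19.7 in the higher-scoring HDM ears, 19.0 in the lower-scoring HDM ears and 17.3 in sham ears. Krt14 overlapped between the sets and rose by 0.41 ± 0.12 over all HDM ears (SE, adjusted p = 0.00825, limma). Both lie close to the upper limit of the values. Krt15, a keratin of basal cells and of the hair follicle bulge, was 10.53, 9.27, 11.25 and 11.70 in the higher-scoring HDM ears and 14.41, 14.27, 14.05 and 14.26 in the lower-scoring HDM ears, with a sham median of 16.06. Krt2, a keratin of the ear's upper epidermis, was 17.98, 15.77, 17.12 and 19.45 in the higher-scoring HDM ears, while the lower-scoring HDM ears (19.88 to 19.92) and sham ears (median 19.89) sat at the upper limit of the values.

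Lipid synthesis divided by gene. The ceramide and barrier lipid list had 9 of 28 wholly higher, 9 wholly lower and a median difference of 0.05. Elovl6, a fatty acid elongase, was 13.04, 12.03, 12.70 and 14.09 in the higher-scoring HDM ears and 16.84, 16.22, 16.36 and 16.95 in the lower-scoring HDM ears, which overlapped sham (15.69 to 17.32). Cers3, the ceramide synthase of very long chain skin ceramides, went the other way, at 12.52, 13.35, 13.75 and 12.87 in the higher-scoring HDM ears and 10.78, 10.73, 10.83 and 10.69 in the lower-scoring HDM ears, with a sham median of 9.44. Sebaceous genes were wholly lower in the higher-scoring HDM ears for 11 of 21 and wholly higher for none, with a median difference of -0.84. The lower-scoring HDM ears lay wholly above or below sham for none of the 21. Cholesterol synthesis genes were wholly lower for 10 of 18 and wholly higher for 1, and the median against sham was -0.35 in the higher-scoring HDM ears and 0.38 in the lower-scoring HDM ears.

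**Figure D3:**
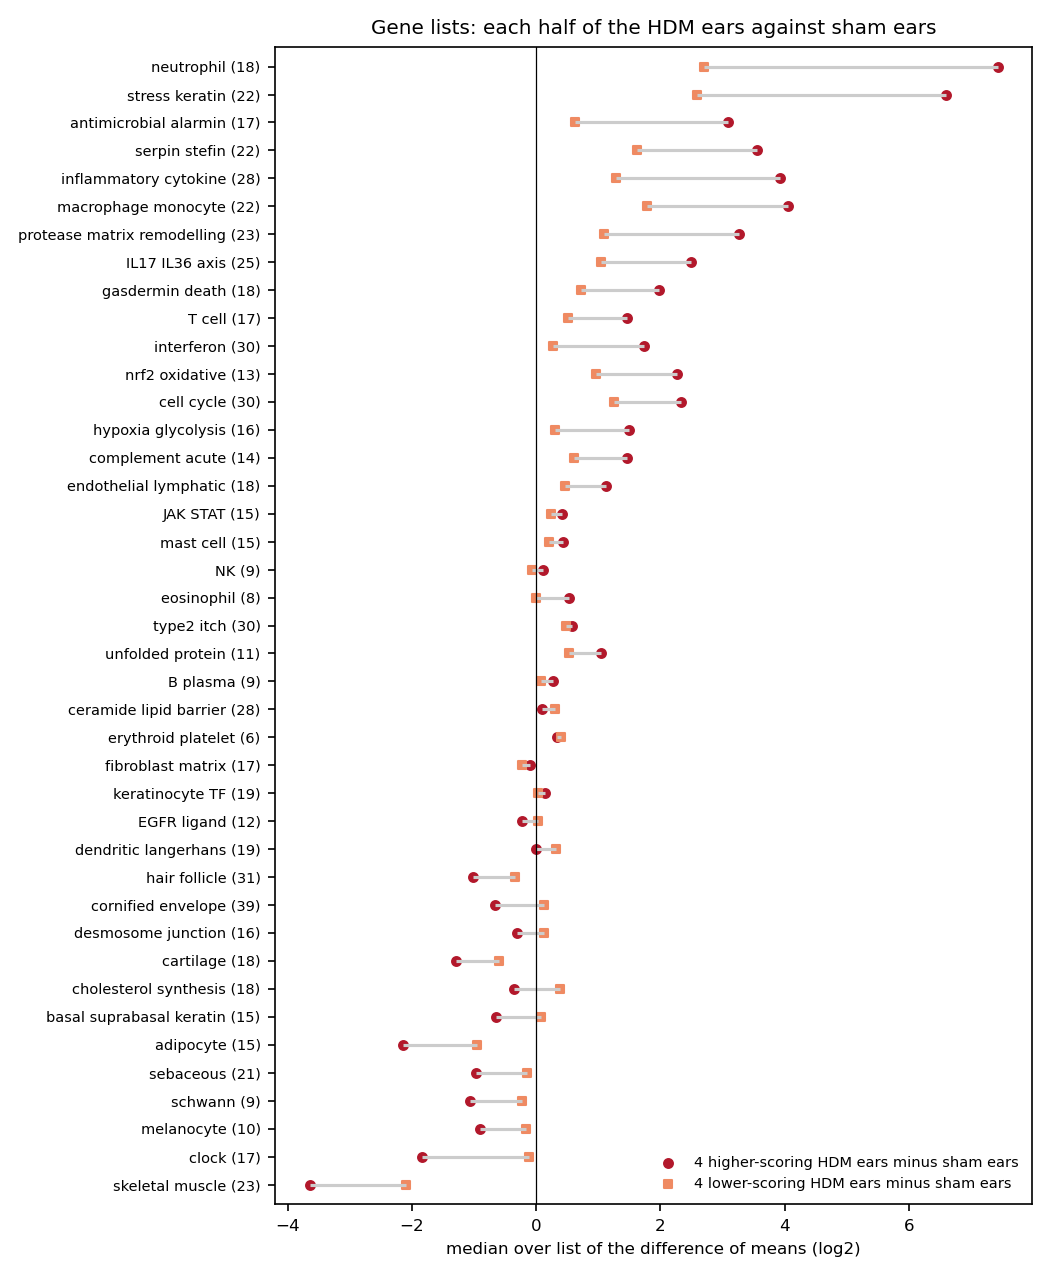
Median over each gene list of the difference of means from sham ears (log2), for the 4 higher-scoring HDM ears (circles) and the 4 lower-scoring HDM ears (squares); the number of measured genes outside the score is in brackets, and both sets share the same sham arrays. Lists are ordered by the median difference between the HDM sets. The uppermost are neutrophil (7.43 against 2.71) and stress keratin (6.59 against 2.60) genes, and the lowermost are skeletal muscle (-3.64 against -2.10) and clock (-1.84 against -0.11) genes; the adipocyte list is further below sham than clock (-2.14 against -0.96).

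Several of the genes with the largest negative differences were near sham level in the lower-scoring HDM ears. Adh6a, an alcohol dehydrogenase, was 9.60, 8.11, 8.72 and 10.83 in the higher-scoring HDM ears and 13.71, 13.68, 13.63 and 13.75 in the lower-scoring HDM ears, with a sham median of 13.60 (13.18 to 14.32). Cyp2b10, a xenobiotic-metabolising cytochrome P450, was 8.01, 7.62, 7.38 and 9.06 in the higher-scoring HDM ears and 11.87, 11.80, 12.06 and 11.88 in the lower-scoring HDM ears, with a sham median of 12.12 (11.46 to 12.54). For both genes the lower-scoring HDM ears lay inside the sham range. Sema3d, a secreted guidance cue, averaged 8.44 ± 1.40 in the higher-scoring HDM ears, 13.66 ± 0.21 in the lower-scoring HDM ears (SD, n = 4 each) and 14.86 ± 0.29 in sham ears (SD, n = 8). Mt4, the metallothionein of stratified epithelium, averaged 7.99 ± 0.58 in the higher-scoring HDM ears, 12.54 ± 0.24 in the lower-scoring HDM ears and 13.34 ± 0.36 in sham ears, with the same n. Both fell over all HDM ears, Sema3d by 3.81 ± 0.71 (adjusted p = 8.88e-05, limma) and Mt4 by 3.07 ± 0.82 (adjusted p = 0.00396).

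Circadian clock genes were lower in the higher-scoring HDM ears. Of 17, 12 were wholly lower and 1 wholly higher, with a median difference of -1.45, and the median against sham was -1.84 in the higher-scoring HDM ears and -0.11 in the lower-scoring HDM ears. Bhlhe41, a transcriptional repressor of the clock, was 7.78, 7.02, 7.74 and 9.02 in the higher-scoring HDM ears and 11.06, 10.42, 10.96 and 11.37 in the lower-scoring HDM ears, with a sham median of 10.59 (9.66 to 11.87). Rora, an activator of the clock that also acts in lymphocytes and keratinocytes, was 13.36, 12.41, 12.97 and 13.67 in the higher-scoring HDM ears and 15.60, 15.18, 15.33 and 15.80 in the lower-scoring HDM ears, with a sham median of 15.62. The core activator Arntl was among the most even members, at 9.75, 9.97, 9.65 and 10.22 in the higher-scoring HDM ears and 10.48, 9.58, 10.71 and 10.52 in the lower-scoring HDM ears, and it fell by 1.42 ± 0.18 over all HDM ears (adjusted p = 4.61e-07, limma). The labels give no time of day for any sample, and its part in these values was not tested.

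Of 30 cell cycle genes, all 30 rose on the mean of the 8 HDM ears. Between the sets, 19 were wholly higher in the higher-scoring HDM ears and none wholly lower, with a median difference of 1.12. The higher-scoring HDM ears lay wholly above sham for 27 of the 30 and the lower-scoring HDM ears for 17. Ube2c, a ubiquitin-conjugating enzyme of mitotic exit, was 9.22, 9.08, 9.46 and 8.58 in the higher-scoring HDM ears and 6.85, 7.34, 7.01 and 7.28 in the lower-scoring HDM ears, with a sham median of 5.80. Mcm6, a subunit of the replicative helicase, was 11.56, 11.53, 11.74 and 11.67 in the higher-scoring HDM ears and 11.52, 11.88, 11.56 and 11.75 in the lower-scoring HDM ears, with a sham median of 10.28. Mcm6 thus reached the same range in both sets and lay above sham in all 8 HDM ears. Hells, a chromatin remodeller of dividing cells, behaved alike, at 8.88, 8.18, 9.33 and 8.79 in the higher-scoring HDM ears and 8.67, 8.58, 8.74 and 9.16 in the lower-scoring HDM ears, with a sham median of 6.44.

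Hells headed a pool of 357 genes that rose by at least 2 log2 units with both HDM sets wholly above sham. The 6 of these with the smallest difference between the sets were Hells, Ccl20, Ccl17, Prss53, Mcm2 and Kcnab2. In the other direction, 150 genes fell by at least 2 with both sets wholly below sham, and the most even was Akr1c18, a hydroxysteroid dehydrogenase, with 10.94 ± 0.20 in the higher-scoring HDM ears, 10.57 ± 0.88 in the lower-scoring HDM ears (SD, n = 4 each) and 12.77 ± 0.40 in sham ears (SD, n = 8).

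A small group ran the other way, with the lower-scoring HDM ears wholly above sham and the higher-scoring HDM ears back towards or below it. It held 14 genes, and no gene showed the mirror pattern. Gadl1, an amino acid decarboxylase, was 9.84, 8.43, 8.33 and 10.45 in the higher-scoring HDM ears and 11.76, 12.47, 12.43 and 11.70 in the lower-scoring HDM ears, with a sham median of 10.54 (10.04 to 10.98). Mgl2, a lectin of dermal dendritic cells and macrophages, was 8.77, 8.60, 9.04 and 10.34 in the higher-scoring HDM ears and 11.07, 11.18, 10.67 and 10.82 in the lower-scoring HDM ears, with a sham median of 9.96 (9.31 to 10.15). For both genes mouse 7 did not lie below the sham range. Averaged over all 8 HDM ears, the differences from sham were 0.17 ± 0.48 for Gadl1 (SE, adjusted p = 0.835, limma) and 0.23 ± 0.40 for Mgl2 (adjusted p = 0.731). Small averages follow in part from how this group was chosen, so they add no support to the pattern. Pyy, the gut hormone peptide YY, was 4.23, 4.15, 4.55 and 5.85 in the higher-scoring HDM ears, of which 1 was above background, and 7.69, 7.48, 9.10 and 6.36 in the lower-scoring HDM ears. Star, the cholesterol transporter of steroid-making cells, was above background in the 4 lower-scoring HDM ears alone, at 5.59, 5.95, 6.25 and 6.54.

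Genes of the other tissues in an ear punch were lower in the higher-scoring HDM ears as well. Of 23 skeletal muscle genes, 13 were wholly lower and none wholly higher in the higher-scoring HDM ears, and all 23 fell over the 8 HDM ears. Myh8, a myosin heavy chain, was 11.61, 11.71, 12.18 and 13.56 in the higher-scoring HDM ears and 15.47, 14.37, 15.56 and 15.44 in the lower-scoring HDM ears, with a sham median of 17.88. The mean level over the muscle list ran between 7.99 and 9.04 in the higher-scoring HDM ears, 9.33 and 10.18 in the lower-scoring HDM ears, and 10.94 and 12.97 in sham ears. Adipocyte genes were wholly lower for 8 of 15, cartilage genes for 7 of 18 (1 wholly higher), melanocyte genes for 6 of 10 and Schwann cell genes for 4 of 9, with median differences of -0.82, -0.60, -0.90 and -0.86. Over all transcript clusters, 11.8% were wholly lower, 11.1% were wholly higher and 15.5% fell. No member of the muscle, adipocyte, sebaceous, melanocyte or Schwann lists was wholly higher in the higher-scoring HDM ears. These levels move with the inflammatory and epidermal differences above, and their part in those results was not tested.

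Fibroblast and matrix genes were wholly higher for 3 of 17 and wholly lower for 2, with a median difference of -0.01, near the shares of 11.1% and 11.8% over all transcript clusters, so that these counts say nothing particular about the list. Col1a1, the main fibrillar collagen, was 15.59, 16.01, 15.11 and 15.64 in the higher-scoring HDM ears and 15.27, 15.31, 15.72 and 15.96 in the lower-scoring HDM ears. Lum, the collagen-binding proteoglycan lumican, was higher at 17.49, 17.28, 16.54 and 16.63 in the higher-scoring HDM ears against 15.00, 15.78, 15.22 and 15.16 in the lower-scoring HDM ears, while Eln, elastin, was lower by 1.48. Proteases and matrix-remodelling genes were wholly higher for 17 of 23 and wholly lower for 1, with a median difference of 1.76. Timp1, the metalloprotease inhibitor, was 12.37, 12.72, 12.40 and 12.60 in the higher-scoring HDM ears and 7.59, 9.20, 8.02 and 7.15 in the lower-scoring HDM ears, with sham below background. Endothelial and lymphatic genes were wholly higher in the higher-scoring HDM ears for 8 of 18 and wholly lower for 1, with a median difference of 0.68. Their list means did not overlap, at 8.43 to 8.90 in the higher-scoring and 8.02 to 8.09 in the lower-scoring HDM ears. Unlike the list, Lyve1, a marker of lymphatic vessels, was level between the sets. Its means were 12.05 in the higher-scoring HDM ears, 11.95 in the lower-scoring HDM ears and 10.01 in sham ears.

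Hypoxia and glycolysis genes were wholly higher in the higher-scoring HDM ears for 11 of 16 and wholly lower for none, with a median difference of 1.05. Slc16a3, the lactate exporter MCT4, was 13.56, 14.74, 14.10 and 12.32 in the higher-scoring HDM ears and 8.91, 9.93, 10.34 and 9.42 in the lower-scoring HDM ears, with a sham median of 8.26. Among genes of the oxidative stress response, Slc7a11, the cystine importer, was 14.87, 15.44, 15.38 and 14.10 in the higher-scoring HDM ears and 10.04, 11.23, 10.67 and 10.31 in the lower-scoring HDM ears. Gstm1, a glutathione transferase often listed with the same pathway, was lower instead, at 11.66, 11.06, 11.63 and 12.21 in the higher-scoring HDM ears and 14.16, 13.93, 13.75 and 13.98 in the lower-scoring HDM ears.

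**Figure D4:**
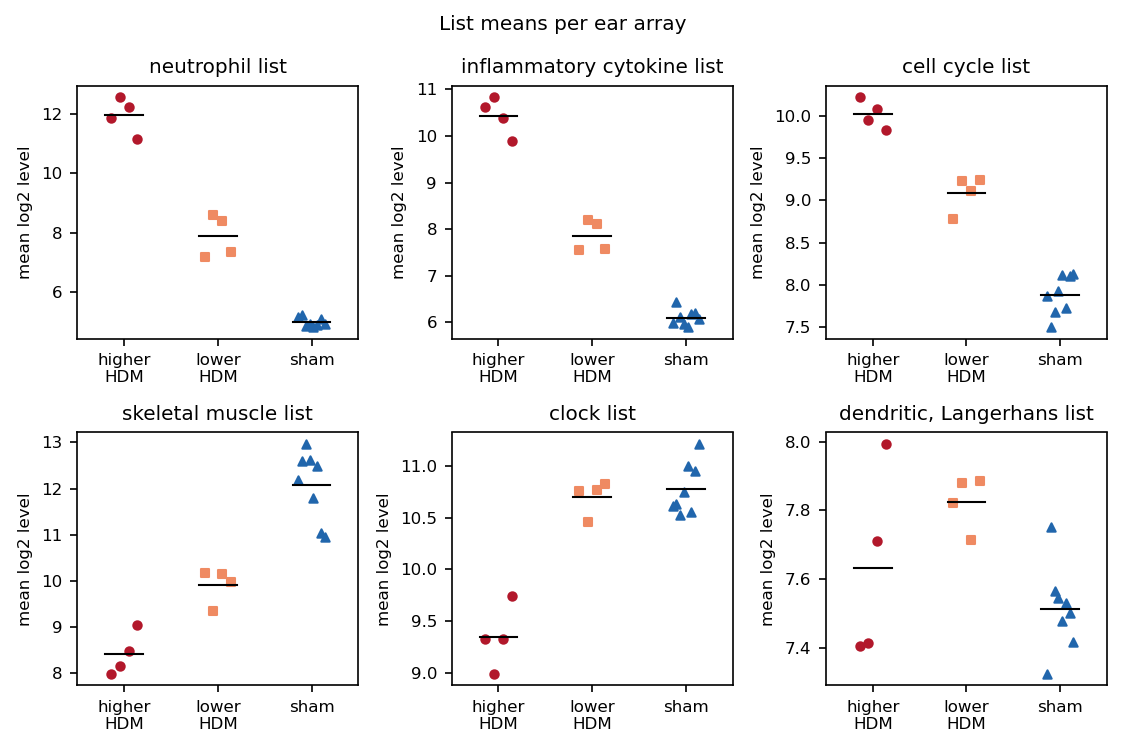
Mean log2 level over 6 gene lists on each ear array, for the 4 higher-scoring HDM ears, the 4 lower-scoring HDM ears and the 8 sham ears; bars are means over arrays. The neutrophil list runs between 11.15 and 12.54 in the higher-scoring HDM ears and between 7.20 and 8.60 in the lower-scoring HDM ears, while the dendritic and Langerhans list overlaps between them.

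Short patterns in promoters were counted over the genes on each side of the split with a difference of at least 1. RefSeq promoters were at hand for 912 of 1141 genes higher in the higher-scoring HDM ears and 946 of 1212 lower. The AP-1 pattern was in 11.2% of the 912, 6.98% of the 946 and 7.27% of the 15691 promoters of genes on the array that had an entry. The C/EBP pattern was in 13.4% of the 912, 10.9% of the 946 and 10.1% of the 15691, and the STAT pattern in 8.88%, 5.50% and 7.90% in the same order. These shares were not tested. Of 19 keratinocyte transcription factor genes, 3 were wholly higher and 6 wholly lower in the higher-scoring HDM ears, with a median difference of -0.04. Fosl1, which encodes an AP-1 subunit, was 9.87, 10.75, 10.03 and 10.35 in the higher-scoring HDM ears. In the lower-scoring HDM ears it was 7.47, 8.09, 8.20 and 8.01, with a sham median of 5.78. Any link between Fosl1 and the AP-1 shares was not tested.

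The split of the ears was not seen in back skin of the same numbers. The score in HDM back skin was 17.15 ± 0.507 (SD, n = 4) for the numbers of the higher-scoring HDM ears and 17.06 ± 0.340 (SD, n = 4) for the numbers of the lower-scoring HDM ears, a difference of 0.09 (exact two-sided permutation test, p = 0.8, smallest possible 0.0286 over 70 splits). All HDM back skin lay between 16.42 and 17.56, below every higher-scoring HDM ear and, mouse 4 apart, above every lower-scoring HDM ear. By limma, 0 of 22206 transcript clusters (0.0%) differed between the number sets in HDM back skin at an adjusted p of 0.05, and 938 (4.22%) had an unadjusted p under 0.05. A fit on all 32 arrays called 1, the vomeronasal receptor gene Vmn1r230, with a difference of 1.17 (adjusted p = 0.0406). Since the labels do not say that a number is 1 animal, this compares numbers and not necessarily mice.

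**Figure D5:**
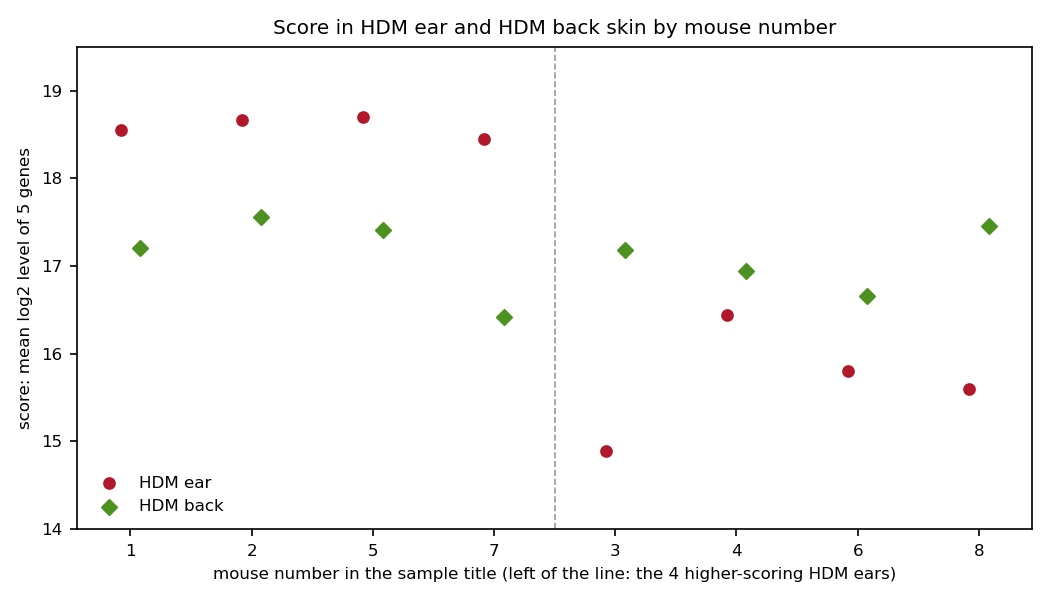
Score (mean log2 level of 5 genes) of each HDM ear (circles) and each HDM back skin sample (diamonds) by the mouse number in the sample title, with the numbers of the 4 higher-scoring HDM ears left of the line. The ears form 2 groups by construction, and the back skin values (16.42 to 17.56) do not follow them.

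Measures of array quality differed by small amounts between the sets, but background and array medians moved with the score. The median of the negative controls, used as background, was 4.61 to 4.93 in the higher-scoring HDM ears, 4.83 to 4.98 in the lower-scoring HDM ears and 5.09 to 5.38 in sham ears. The share of transcript clusters above it was 57.2% to 60.0%, 57.1% to 58.0% and 54.4% to 56.6% in the same order. Array medians were 5.99 to 6.08 in the higher-scoring HDM ears and 6.08 to 6.15 in the lower-scoring HDM ears. Positive control medians were 10.255 to 10.30 in the higher-scoring and 10.10 to 10.295 in the lower-scoring HDM ears. With array medians made equal, 3043 transcript clusters were wholly higher and 2265 wholly lower, against 2464 and 2618. Which direction held more thus depended on this setting. The part of the background in the results was not tested.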

How the data were processed

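RNA from 32 tissue punches (100 ng each, kept in RNAlater for at least 18 hours) was measured on single-sample biotin-labelled arrays. The deposited values are log2 levels that the authors made by RMA (per the submitters' processing notes, which also name the Transcriptome Analysis Console). Genome build and tool versions are both not given in the sources used here. The range is wide for RMA, and a later rescaling, if any, would change the size of differences and folds but not their direction. Of 28846 rows, 6640 array controls were left out, and 19572 of the 22206 remaining carry a gene symbol from the platform annotation. The highest-mean row stood for a gene. Background was each array's negative control median.

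The score, the lists and the named genes were chosen with earlier results of these data known. Named genes are the 5 score genes and the 10 largest differences each way between the sets (above background in the brighter set, not overlapping). They also include up to 4 most and 2 least different members per list and the 6 most even changed genes each way. Up to 6 opposite genes each way and the 5 strongest in each direction of the spread test complete them. Exceptions are marked. Outside this rule, Cd3e was named as a T cell marker, and Il4, Il5, Il13 and Il31 as type 2 cytokines below background. Changes against sham and in back skin were tested with limma 3.58.1 in R 4.3.3 (lmFit, eBayes, Benjamini-Hochberg, adjusted p under 0.05) on group means of 32 arrays and on the 8 HDM back skin arrays, and spread with limma on absolute deviations in 16 ear arrays. All 3 were tested on simulated data, drawn with normal errors and the SDs of sham arrays. For the tests of means, the wider spread among HDM ears was not simulated, so those checks do not cover it. Between ears and back skin of HDM mice, deviations of same-numbered samples correlated at -0.0837 to 0.140, and 2 of 8 matched their own number best, so numbers were not taken as pairs. Nothing beyond the mouse number says that samples are separate animals. Array number limits the precision. Near-identical genes may share probes.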

Additional observations from a re-analysis of the deposited data

Results flagged for a closer look

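Of 188 sets of values examined per group (scores, list means and single named genes), 4 had 1 array standing apart from the others of its group, where chance gives about 1 in 20. All 4 were list means. Among HDM ears, the mean over keratinocyte transcription factor genes was 12.39 in mouse 8, a lower-scoring ear, with the next highest at 12.15. The other 3 were in sham ears. Mouse 2 had the highest stress keratin mean, 6.52 against 6.16 for the next sham ear, and also the highest sham score, 8.31. Mouse 4 had the highest interferon-response mean, 5.81 against 5.67, and mouse 3 the lowest sebaceous mean, 11.28 against 11.59. The sham values are far from those of HDM ears for the first of these lists, where the lowest HDM ear mean was 8.72.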

How the results depend on the processing

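Setting the 3 highest against the 3 lowest HDM ears gave 4061 non-overlapping transcript clusters higher and 4109 lower, against 2464 and 2618 with 4 and 4. The sets are then smaller and also leave out mice 7 and 4, the ears nearest the other set: without mouse 7 alone the counts were 3226 and 3353, and without mouse 4 alone 3211 and 3375. Equal array medians gave 3043 and 2265, so that more were higher than lower, the reverse of the main counts. Fewer transcript clusters were less variable among HDM than sham ears with deviations from the median (28) or with dim ones left out (49), against 83. In HDM back skin the fit on 32 arrays called 1 against 0, and the score difference without Defb3 was -0.001875 (exact permutation p = 1.0), where the cause was not tested. When dim values were lifted to the background level, the difference of Siglecf between the HDM sets was -0.18 and the spread difference of Bnip5 was 0.0426, both of opposite sign, since dim values set the sign. The eosinophil list had no member left once dim genes were removed. Leaving out 1 array at a time gave 2821 to 3226 higher and 2897 to 3375 lower between the HDM sets, 3291 to 3765 higher and 2967 to 3666 lower against sham, 1158 to 1723 more and 63 to 110 less variable, and 0 to 0 in back skin. Mouse number as a replicate block called 3638 higher and 3395 lower against sham, and the labels do not say whether the numbers pair the samples. Of the named genes' tests against sham over all alternatives, 5478 kept their side of the threshold, 183 lost it and 28 gained it. Dbp, Bhlhe41 and Adgre1 were among those that lost it without single arrays. Low levels limit Il17a, Il22 and Cd8a, which lie near background, and the upper limit of the values limits Krt2, S100a8 and S100a9.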
